A study of Mus musculus with 11 samples.

Results

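The libraries of file set 4 were compared with those of file set 5, treatment by treatment, in cultures that the labels name as mouse cavernous endothelial cells. Set 4 held 1 library each of normal glucose (replicate 2), high glucose (replicate 3) and high glucose with Hsp70 (replicate 3). Set 5 held 1 library of each of the same treatments (replicates 3, 4 and 4). The members of the comparison were the 6 of 11 libraries whose deposited names carry these set numbers, and the 17579 of 23238 genes that reached a normalized count of 1 in 3 or more of them. The cells came from corpus cavernosum, the erectile tissue of the penis, and were kept in a culture medium with fetal bovine serum and heparin, with 5 days of treatment. The labels name no strain, age, sex or genotype of the mice, no glucose concentration, and no form or dose of Hsp70. They also do not say what a set is, nor that replicates were separate cultures or animals, so each p-value below measures only the spread between these samples, which may be technical.

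Endothelial cells line the blood spaces of erectile tissue, and cultures from a piece of tissue can also hold fibroblasts, smooth muscle, pericytes, nerve sheath and immune cells. Cultures started separately commonly differ in serum response, density and the share of each cell type. Whether the sets were such cultures is not given, and the comparison measures what differed between their libraries at the same treatment.

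Several defining endothelial markers were low in both sets, and others were not. Pecam1, the endothelial adhesion protein CD31, had normalized counts of 5.41 to 21.7, or 1.57 to 6.32 per kb of transcript. Cdh5, VE-cadherin, had 12.6 to 27.4 per kb, or 5.68 to 6.79 as log2(normalized count + 1). On that log2 scale the less restricted Eng, endoglin, read 11.01 to 11.33 and Clec14a, a lectin-like protein of endothelium, 9.74 to 10.16. Dcn, the fibroblast proteoglycan decorin, had 8370 to 14119 per kb, and Pdgfra, a growth factor receptor of fibroblasts, 4291 to 7470. The counts of 24 endothelial genes together came to 8259 to 8912 in set 4 and 7709 to 8740 in set 5. Those of 20 fibroblast genes came to 257620 to 318820 and 238810 to 281200. The sums overlapped between the sets for both. Each library's normalized counts came to between 24.8 and 27.8 M in all, of which Rn45s, the ribosomal RNA gene, made up 0.638% to 4.12%. In all 6 libraries the same 2753 genes stood at 0.

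Values are log2(normalized count + 1), and a difference is set 5 minus set 4 within a treatment, in log2 units, averaged over the 3 pairs and given with its standard error from limma. No gene differed between the sets at an adjusted p under 0.05 (limma with a term for treatment, 0 of 17579, 0%; smallest adjusted p = 0.278). At an unadjusted p under 0.05 there were 2140 genes (12.2%), of which 1386 were higher in set 5 and 754 lower. With quantile normalization the split was 954 higher and 1095 lower. With the trends of transcript length and GC content, described below, taken out of each library, 1429 of 16828 genes were at that p. Of these, 614 were higher and 815 lower, so the lean towards set 5 was not kept. Treatment inside the same 6 libraries gave 0 genes as well (limma F test, 0%), and 393 (2.24%) at an unadjusted p under 0.05. Among the 8789 genes above the median level, the median mean square, the variation per degree of freedom, was 0.068 for the set, 0.033 for treatment and 0.033 for the remainder. Over all genes tested it was 0.103, 0.0635 and 0.0709. All 3 libraries of set 5 lay above all 3 of set 4 for 2423 genes (13.8%) and below them for 1774 (10.1%).

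The number of genes called changed when Hsp70 replicate 3 of set 4 was left out, alone or with its partner. The pair of Hsp70 libraries differed by more than 1 log2 unit in 22.8% of genes, against 10.4% for the normal glucose pair and 10.9% for the high glucose pair. Without the Hsp70 pair limma called 854 genes, 531 higher in set 5 (3.02%) and 323 lower (1.84%), at an adjusted p under 0.05. That fit sets the normal and high glucose libraries of set 4, which stood apart from Hsp70 replicate 3 of their own set in a group of genes (Apba2 and Cyp2e1 among them), against 2 libraries of set 5. What set these libraries apart is not known from the labels and was not tested, so the calls cannot be read as differences between sets alone. Without Hsp70 replicate 3 of set 4 alone, and with no treatment term, it called 514, of which 502 were among the 854. Leaving out its partner, Hsp70 replicate 4 of set 5, gave 0. Without the normal or the high glucose pair 0 genes were called, with 522 and 2010 at an unadjusted p under 0.05. In the Hsp70 pair, which had no part in them, 580 of the 854 calls (67.9%) had the same sign. Of all genes, 11189 had 1 sign in the normal and high glucose pairs, and in 6846 of these the Hsp70 pair had it too. The share among the calls was thus not far above that of any gene whose normal and high glucose pairs shared a sign. Across 17579 genes, which are not independent replicates, the differences of the normal and high glucose pairs had a Pearson r of 0.17, those of the normal glucose and Hsp70 pairs 0.17, and those of the high glucose and Hsp70 pairs 0.00. All 3 pairs had 1 sign in 6846 genes (38.9%).

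**Figure D1:**
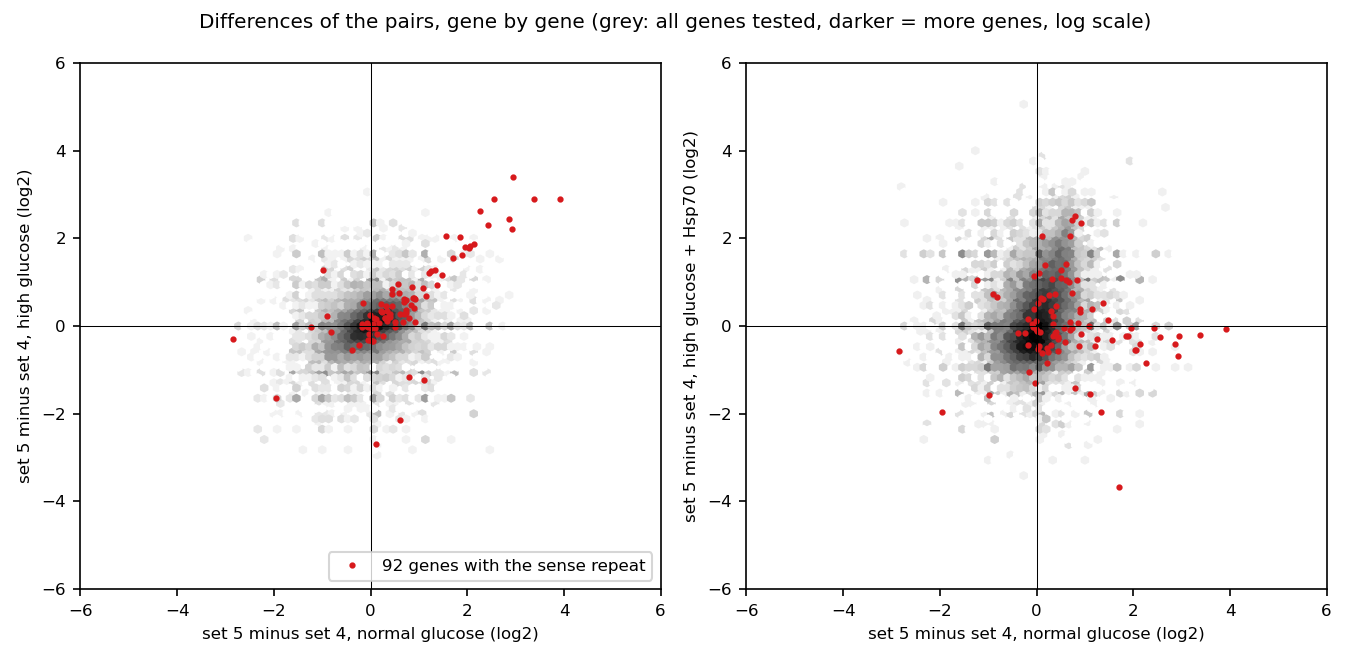
Each panel sets the set 5 minus set 4 difference of the normal glucose pair (x axis, log2) against that of another pair (y axis, log2): high glucose at left, high glucose with Hsp70 at right. Grey hexagons count the 17579 genes, and red points are the 92 genes whose transcripts hold a GAAA repeat, which spread along the diagonal at left and along the x axis at right.

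Serpina3j, Serpina3k, Serpina3m, Nlrp1a and Gm19395 lie below the median level, outside the rule for named genes, and were chosen, with the other Serpina3 genes, after their values were seen. Serpina3j had the smallest p of all. It belongs to a chromosome 12 cluster of secreted serine protease inhibitors related to antichymotrypsin, a protein of the acute phase response, and lies at chr12:104314553-104320725 (mm10, plus strand). Its normalized counts in set 4 were 57.2 in normal glucose, 155 in high glucose and 193 with Hsp70. In set 5 they were 1.62, 1.31 and 2.24. On the log2 scale this was 5.86, 7.28 and 7.60 against 1.39, 1.21 and 1.69, a difference of -5.48 ± 0.46 (SE, n = 3 pairs; limma adjusted p = 0.278). The groups were far apart in each treatment. Without the treatment term Serpina3j was the 1 gene called (limma adjusted p = 0.0313). Outside these sets it read 6.82 and 4.58 in the high glucose and Hsp70 libraries of set 3, and 1.54, 2.27 and 2.56 in the other 3 libraries.

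Serpina3k and Serpina3m, the next genes of that cluster, overlap each other (chr12:104338486-104346144 and chr12:104338486-104394257) and share 12.8% to 16.0% of their 50-base words, so reads could be split between them. Serpina3k read 6.37, 7.70 and 7.61 in set 4 and 4.08, 5.04 and 2.68 in set 5, a difference of -3.29 ± 0.54. Serpina3m read 7.42, 8.12 and 7.61 against 6.29, 6.74 and 6.34, a difference of -1.26 ± 0.19. Neither passed over the 3 pairs (limma adjusted p = 0.406 for both), and their sets did not overlap. Serpina3j shared at most 1.52% of its 50-base words with any other member. The abundant member Serpina3n, at 13.86 to 14.23 in set 4 and 13.63 to 13.86 in set 5, differed by -0.28 ± 0.18. Serpina3g, at 11.23 to 12.16 and 11.62 to 11.75, differed by 0.02 ± 0.19. Serpina3h, at 8.17, 9.71 and 8.97 in set 4 and 8.23, 7.95 and 7.61 in set 5, differed by -1.02 ± 0.35 with overlapping sets. Serpina3i differed by -0.53 ± 0.20 without overlap, and Serpina3b, near 0 counts, by -1.05 ± 0.65. Serpina3a (-0.45), Serpina3c (-0.13) and Serpina3f (-0.30) had overlapping sets. The size of the difference thus varied among members at high and at low levels.

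Nlrp1a, a sensor of the inflammasome in myeloid cells, read 5.91, 5.74 and 6.59 in set 4 and 3.09, 3.15 and 4.397 in set 5. Its difference was -2.53 ± 0.33 (limma adjusted p = 0.406). The predicted gene Gm19395 went the other way, at 5.18, 4.76 and 4.96 against 7.33, 6.53 and 7.22, a difference of 2.06 ± 0.25. All 5 genes were called once the Hsp70 pair was left out (limma adjusted p from 7.73e-05 to 0.00419). They had been picked for the smallest p over the 6 libraries, of which that fit shares 4, so these calls are no separate support.

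**Figure D2:**
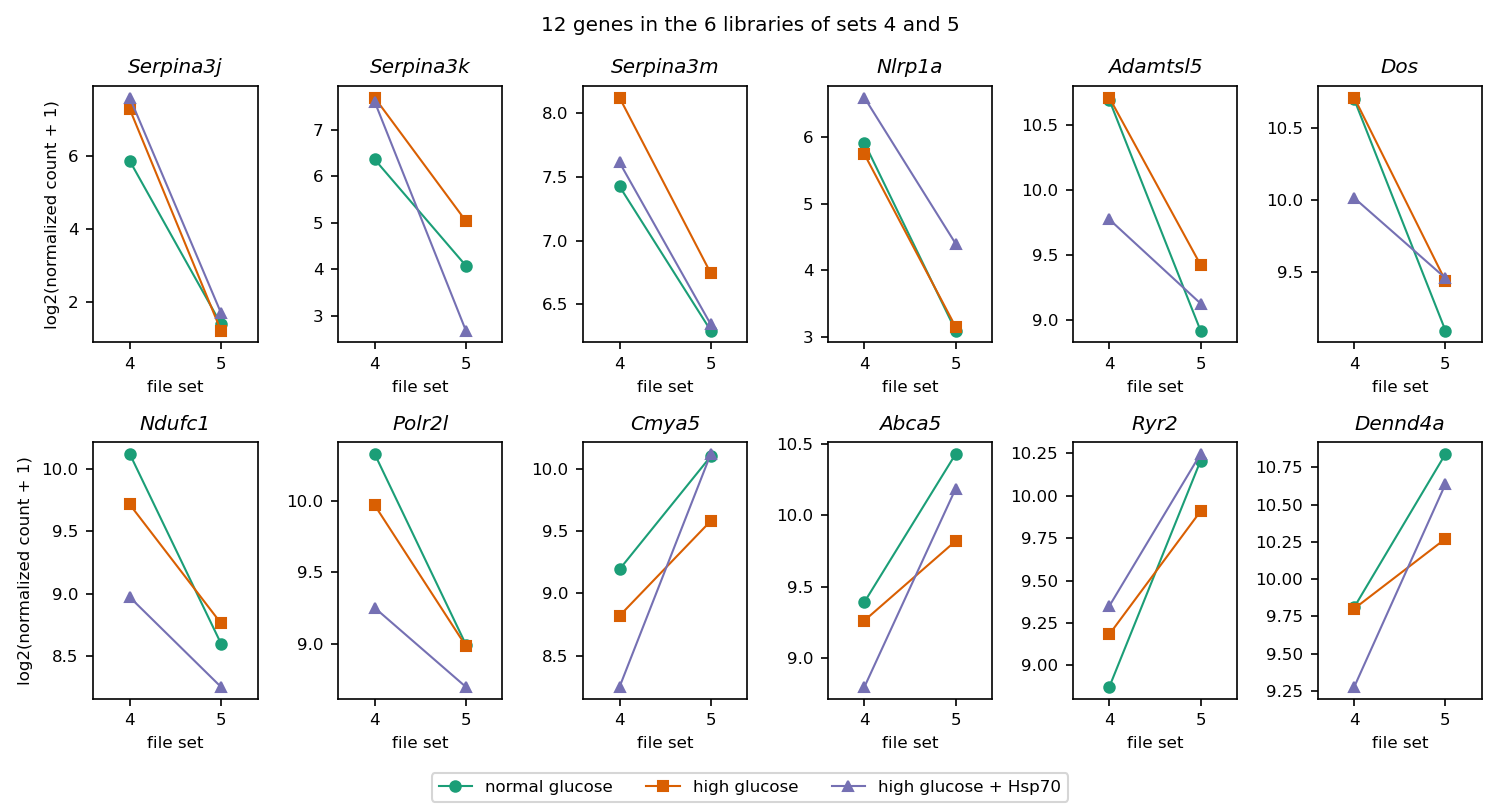
Log2(normalized count + 1) of 12 genes in set 4 (left of each panel) and set 5 (right), with a line joining the 2 libraries of each treatment. Each y axis has its own range and does not start at 0. The 6 genes of the first row, Ndufc1 and Polr2l descend in each treatment, and Cmya5, Abca5, Ryr2 and Dennd4a climb in each.

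The rule for named genes gave 12 above the median level that were higher in set 5 in all 3 pairs and 12 that were lower. None passed over the 3 pairs (limma adjusted p = 0.406 for each of the 24). All 24 were called in the fit without the Hsp70 pair, which shares 4 of the 6 libraries. The sets did not overlap for 23, where 13.8% of all genes were higher and 10.1% lower without overlap. Genes chosen by small p and 1 sign tend to meet both criteria, so these counts are no separate support. Ryr2, a calcium release channel of the endoplasmic reticulum, read 8.87, 9.18 and 9.35 in set 4 and 10.21, 9.91 and 10.25 in set 5, a difference of 0.98 ± 0.17. Mcur1, a regulator of the mitochondrial calcium uniporter, read 9.43, 9.14 and 9.25 against 10.11, 9.97 and 9.80. Ppargc1a, the coactivator PGC-1α that drives mitochondrial biogenesis, read 9.18, 9.10 and 9.003 against 10.05, 9.77 and 9.89, a difference of 0.81 ± 0.14. Each library of set 5 exceeded each of set 4 for all 3 genes.

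Cmya5, a large structural protein of striated muscle, had the widest difference of the 12, 1.18 ± 0.24, from 9.19, 8.82 and 8.25 to 10.10, 9.58 and 10.12. The Hsp70 pair gave the largest step. Vps54, a subunit of a tethering complex of the Golgi, was higher by 0.65 ± 0.13, Dennd4a, an exchange factor for Rab proteins, by 0.95 ± 0.20, and Abca5, a lipid transporter, by 0.99 ± 0.19. Naf1, an assembly factor of small nucleolar ribonucleoproteins, was 0.73 ± 0.14 higher and Cd55b, an inhibitor of complement, 0.71 ± 0.14. Lrch2 (0.90 ± 0.16), Mob3b (0.71 ± 0.14) and the ring finger gene Lonrf3 (0.95 ± 0.17) completed the group. Lonrf3 was the member whose sets overlapped, since it read 9.90 in normal glucose of set 4 and 9.49 in high glucose of set 5.

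Of the 12 lower genes, 3 encode parts of the respiratory chain or ATP synthase and 2 encode subunits shared by the nuclear RNA polymerases. Ndufc1, of complex I, read 10.12, 9.72 and 8.97 in set 4 and 8.60, 8.76 and 8.25 in set 5, a difference of -1.07 ± 0.19. Atp5g3, a c subunit of ATP synthase, read 11.32, 11.06 and 10.75 against 10.50, 10.26 and 10.15. Uqcr11, of complex III, read 9.89, 9.86 and 9.81 against 9.25, 9.07 and 9.20. The sets were apart for each, by 0.68 to 1.07 log2 units. Among the polymerase subunits, Polr2e differed by -0.75 ± 0.14 and Polr2l by -0.96 ± 0.18. Polr2e read 10.44, 10.37 and 10.30 in set 4 and 9.55, 9.69 and 9.63 in set 5, a narrow spread within each set.

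Adamtsl5, a secreted protein of the ADAMTS-like family, had the widest difference of the 12: 10.70, 10.71 and 9.78 against 8.92, 9.42 and 9.13, or -1.24 ± 0.23. Adam33, a membrane metalloprotease of mesenchymal cells, was at 9.04, 9.30 and 9.57 against 8.35, 8.44 and 8.42, or -0.90 ± 0.16. Phf1, a partner of the Polycomb methyltransferase complex, differed by -0.72 ± 0.14 and the membrane protein gene Tmem259 by -0.84 ± 0.15. Dos differed by -1.14 ± 0.22, Fam195b by -0.72 ± 0.14 and the small nucleolar RNA Snord58b by -1.11 ± 0.22. For Adamtsl5, Dos, Ndufc1, Polr2l and Snord58b, Hsp70 replicate 3 was the lowest library of set 4, between the other libraries of its set and those of set 5.

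Of the 12 lower genes, Dos and Fam195b had no GENCODE match and so no position. Among the others, Adamtsl5, Polr2e, Tmem259 and Uqcr11 are neighbours on chromosome 10 (chr10:79974948-80406830). That stretch, chosen after these values were seen, held 26 tested genes. These 4 set its ends and are among the 26. The median difference was -0.25, with -0.05, -0.40 and -0.40 in the normal glucose, high glucose and Hsp70 pairs, and that of the rest of chromosome 10 was 0.08. The stretch had a median GC content of 59.4% and the rest of the chromosome 48.3%. With the trends of length and GC content taken out of each library the medians were -0.10 and 0.00.

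Among Txnip, Cth, Hspa1a, Pecam1, Dcn and Cxcl12, Cth had the widest difference between the sets. Cth, cystathionine gamma-lyase, which makes hydrogen sulfide from cysteine, read 8.11, 8.12 and 8.30 in set 4 and 8.88, 8.58 and 8.75 in set 5. Its difference was 0.56 ± 0.16 and did not pass (limma adjusted p = 0.406). It passed without the Hsp70 pair, at 0.61 (limma adjusted p = 0.0396). Every library of set 5 lay above every library of set 4. Of the 7 tested genes of hydrogen sulfide metabolism 5 were below 0, and the median was -0.36. Cbs, the partner enzyme of transsulfuration, read 4.99, 4.91 and 4.76 against 4.48, 3.46 and 4.53, a difference of -0.73 ± 0.40.

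Txnip, a glucose-induced inhibitor of thioredoxin, was close between the sets in each treatment, at 11.23 and 10.89 in normal glucose, 11.95 and 11.94 in high glucose and 11.61 and 11.54 with Hsp70. Its difference was -0.14 with a 95% interval from -0.50 to 0.22. Hspa1a, the inducible Hsp70, differed by -0.04 (-0.40 to 0.32). Cxcl12, a chemokine of stromal cells, differed by 0.03 (-0.34 to 0.40). Pecam1 differed by -0.41 (-1.46 to 0.65) and Dcn by -0.24 (-0.76 to 0.29), each with overlapping sets.

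Gene lists for cell types, signs of handling and pathways were described by their counts and medians beside those of all genes tested, whose median was 0.03 over the 3 pairs. No member of any list was called over the 3 pairs (limma, adjusted p under 0.05). Of 35 lists with 5 or more tested members, 21 had a median below 0 and 14 above. In 10 of them the 3 pairs had medians of 1 sign, 8 below 0 and 2 above.

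Cytosolic ribosomal proteins, the protein part of the translation machinery, leaned lower in set 5 in each pair. Of 54 tested members 47 were below 0 and 38 were lower without overlap, none higher without overlap, against 10.1% of all genes. The median was -0.31 over the pairs, with -0.25 in normal glucose, -0.25 in high glucose and -0.44 with Hsp70. Rpl18 read 12.20, 12.16 and 12.12 in set 4 and 11.45, 11.62 and 11.55 in set 5, or -0.62 ± 0.14. Rps9 read 13.30, 13.34 and 13.18 against 12.63, 12.68 and 12.71, or -0.61 ± 0.15. These were narrow groups that did not overlap.

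The members varied among themselves. Rplp1, of the ribosomal stalk, read 13.90, 13.92 and 15.28 in set 4 and 14.55, 14.53 and 14.53 in set 5. Rpl10, of the large subunit, read 13.86, 13.89 and 13.07 against 12.79, 12.92 and 12.85. Set 5 was thus flat for both, and in set 4 Hsp70 replicate 3 stood on the other side for Rplp1 and near set 5 for Rpl10. Without the Hsp70 pair limma called 15 members lower (1.84% of all genes) and 3 higher (3.02%) at an adjusted p under 0.05, which were Rpl14, Rpl37 and Rplp1. Ribosomal protein genes have many processed pseudogenes, and how the authors' counting divided reads among near-identical copies is not known from the labels, so values of single members are uncertain.

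Nuclear genes of the respiratory chain, which builds the proton gradient for ATP, leaned the same way. Of 47 tested, 41 were below 0 and 19 were lower without overlap (10.1% of all genes), none higher without overlap (13.8%). The median was -0.21, with -0.13, -0.12 and -0.42 in the normal glucose, high glucose and Hsp70 pairs. Ndufs8, an iron-sulfur subunit of complex I, read 10.21, 10.17 and 9.66 in set 4 and 9.09, 8.96 and 9.26 in set 5, or -0.91 ± 0.20. Atp5g1, of ATP synthase, was -0.75 ± 0.16, and Uqcrq, of complex III, -0.67 ± 0.15. Without the Hsp70 pair limma called 9 lower (1.84% of all genes) and 3 higher (3.02%) at an adjusted p under 0.05, among them Ndufb10 and Uqcrb. Ndufb10 read 11.44, 11.43 and 12.38 against 12.09, 11.87 and 11.98, so its Hsp70 pair went against the others. With the trends of length and GC content removed, the medians were -0.20 for ribosomal proteins and -0.14 for the respiratory chain, beside -0.02 for all genes. 

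ATF4 targets, the amino acid synthesis and transport genes of the integrated stress response, had pairs of opposite sign. Their median was 0.21, with 22 of 32 above 0, from 0.49 in normal glucose, 0.18 in high glucose and -0.43 with Hsp70. Without the Hsp70 pair limma called 7 of them higher (3.02% of all genes) and 0 lower (1.84%) at an adjusted p under 0.05: Atf4 itself, Asns, Chac1, Psat1, Phgdh, Stc2 and Cth. Chac1, which degrades glutathione, read 6.09, 5.35 and 6.13 in set 4 and 8.06, 6.59 and 4.78 in set 5. Asns, asparagine synthetase, read 9.01, 9.03 and 9.92 against 10.57, 9.58 and 9.43. Phgdh, the first enzyme of serine synthesis, read 8.86, 8.49 and 9.18 against 9.97, 9.02 and 8.59. For each of the 3 genes the Hsp70 library was the highest of set 4 and the lowest of set 5. Among the 7, Cth alone was higher in set 5 in the Hsp70 pair as well, by 0.45.

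Interferon-stimulated genes were divided. The median of 51 was -0.02, and 9 were lower and 3 higher without overlap, beside 10.1% and 13.8% of all genes. Ifit2, which binds viral RNA, read 10.94, 10.80 and 10.60 in set 4 and 11.39, 12.08 and 11.23 in set 5, or 0.79 ± 0.20. Bst2, the membrane tether tetherin, read 11.68, 11.55 and 11.55 against 10.73, 11.21 and 10.59, or -0.75 ± 0.18. Ifitm3, a short transmembrane restriction factor, was at -0.72 ± 0.20. Immediate early genes, which answer serum and handling soon after a stimulus, had a median of -0.18 over 22 members, with 7 lower and 4 higher without overlap, beside the same 10.1% and 13.8%. The transcription factor Klf4 was higher by 0.74 ± 0.19 and the nuclear receptor Nr4a3 by 0.63 ± 0.17. Junb, a subunit of AP-1, had a difference of -0.52 ± 0.14, and Zfp36, which promotes mRNA decay, had -0.50 ± 0.14.

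Growth factors of nerve and vessel were 1 of the 2 lists above 0 in each pair, the other being 5 Y-linked genes. The median of those 5 was 0.57, and -0.07 with the length and GC trends removed. The median of the 24 growth factor genes was 0.16, with 0.21, 0.09 and 0.17 in the pairs. Of these, 17 were above 0, and 5 were higher and 0 lower without overlap, against 13.8% of all genes higher. Fgf10, an epithelial growth factor made by mesenchyme, read 11.84, 12.01 and 11.79 in set 4 and 12.34, 12.30 and 12.34 in set 5, or 0.44 ± 0.15. Bdnf, a neurotrophin, read 11.14, 11.04 and 11.07 against 11.71, 11.40 and 11.35, or 0.40 ± 0.15. Fgf7 was at 0.44 ± 0.17 and Angpt1, a ligand that steadies vessels, at 0.40 ± 0.16. The steps were small and the groups of these 4 genes did not overlap. With the length and GC trends removed, the list's median was 0.09, no member was at an unadjusted p under 0.05, and the differences were 0.17 (Fgf10), 0.10 (Bdnf), 0.21 (Fgf7) and 0.07 (Angpt1). None passed over all genes (limma adjusted p = 0.406 for each of the 4).

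Markers of other cell types gave medians of mixed sign, and in bulk RNA fewer cells of a type and less RNA per cell cannot be told apart. Fibroblast genes had a median of -0.20, with 16 of 20 below 0, but pair medians of -0.18, 0.01 and -0.34. Without the Hsp70 pair their median was -0.03, and with the length and GC trends removed -0.26, beside -0.02 for all genes. Pdgfra was higher (0.41 ± 0.20) and Thy1, a surface protein of stromal cells, lower (-0.46 ± 0.17). With those trends removed the 2 genes differed by 0.06 and -0.25. Ly6a, the progenitor marker Sca-1, read 13.52, 13.58 and 13.30 in set 4 and 12.66, 13.11 and 12.67 in set 5. The counts of 20 leukocyte genes came to 806 to 826 in set 4 and 669.99 to 762 in set 5, which did not overlap, and 16 of them were tested, with a median of -0.28. The pair medians were -0.25, 0.09 and -0.57, and the median without the Hsp70 pair was -0.09. A sum of counts follows its more abundant members, and S100a8 read 7.425, 6.84 and 6.85 in set 4 and 6.57, 6.50 and 5.66 in set 5. Laptm5, a lysosomal protein of blood cells, read 3.68, 3.52 and 2.33 against 1.39, 2.17 and 0.15, whereas the macrophage surface protein Adgre1 had overlapping values of 3.01 to 3.90 and 1.13 to 3.98. Cx3cr1, a chemokine receptor of myeloid cells, went the other way without overlap, at 5.29, 4.63 and 5.53 against 6.30, 5.96 and 5.93, and Ptprc, the pan-leukocyte CD45, was higher in each pair (1.01 ± 0.55) at values near 0 to 3.94. Of 9 tested adipocyte genes 8 were below 0, with Cebpa, a factor of fat cell differentiation, at -0.78 ± 0.16. The endothelial median was 0.04, with 11 of 22 above 0, and Emcn, endomucin, was at -1.06 ± 0.38. Schwann cell and nerve genes had a median of 0.42, from 0.45, -0.0041 and 0.78 in the pairs, and 0.09 without the Hsp70 pair.

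**Figure D3:**
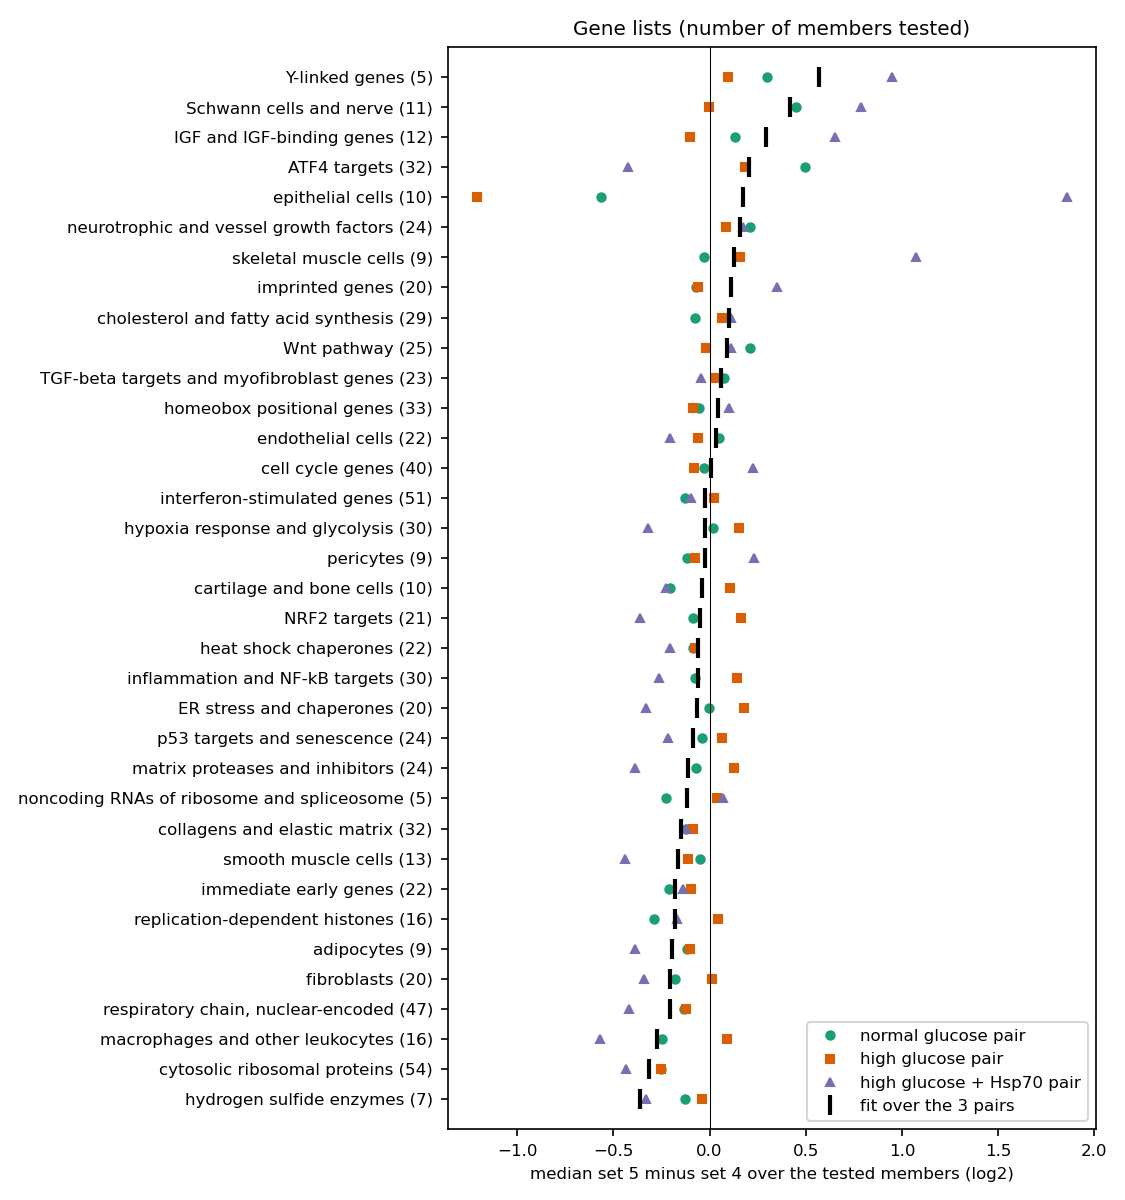
Median set 5 minus set 4 difference (x axis, log2) over the tested members of 35 gene lists, whose number of members is in brackets. Coloured symbols are the 3 pairs and black bars the fit over them: ribosomal proteins and respiratory chain genes lie left of 0 in each pair, and the Hsp70 pair of the ATF4 targets lies at -0.43, against 0.49 and 0.18.

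Transcript length and GC content went along with the differences, mostly in the pairs of normal glucose and Hsp70. Over 8509 genes above the median level with a GENCODE transcript, the shortest of 5 equal classes by transcript length had medians of -0.08 (normal glucose), -0.03 (high glucose) and -0.38 (Hsp70). The longest class, from 5734 bases, had 0.34, 0.05 and 0.80. Spearman's rho between length and the difference, across genes that are not independent, was 0.44, 0.10 and 0.59. For GC content it was -0.37, -0.26 and -0.51. The class with the lowest GC had medians of 0.25, 0.12 and 0.49, and that with the highest had -0.09, -0.05 and -0.36.

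By library, Hsp70 replicate 3 of set 4 lay farthest from the mean of the 6, at -0.50 for the longest class and 0.24 for the shortest. The normal glucose and Hsp70 libraries of set 5 lay at 0.26 and 0.31 for the longest class, and the other 3 libraries between -0.06 and 0.03. The named genes followed the same lines. The median transcript of the 12 higher ones was 5480 bases with 44.0% GC, that of the lower ones with a GENCODE match 2027 bases with 57.3% GC, beside 3180 bases and 49.4% for all genes. With the trends taken out of each library, 22 of the 24 could be counted, all kept their sign, and the median of the 12 higher genes was 0.43 in place of 0.85. That of the lower genes was -0.72 in place of -0.87. The source of these trends was not tested.

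**Figure D4:**
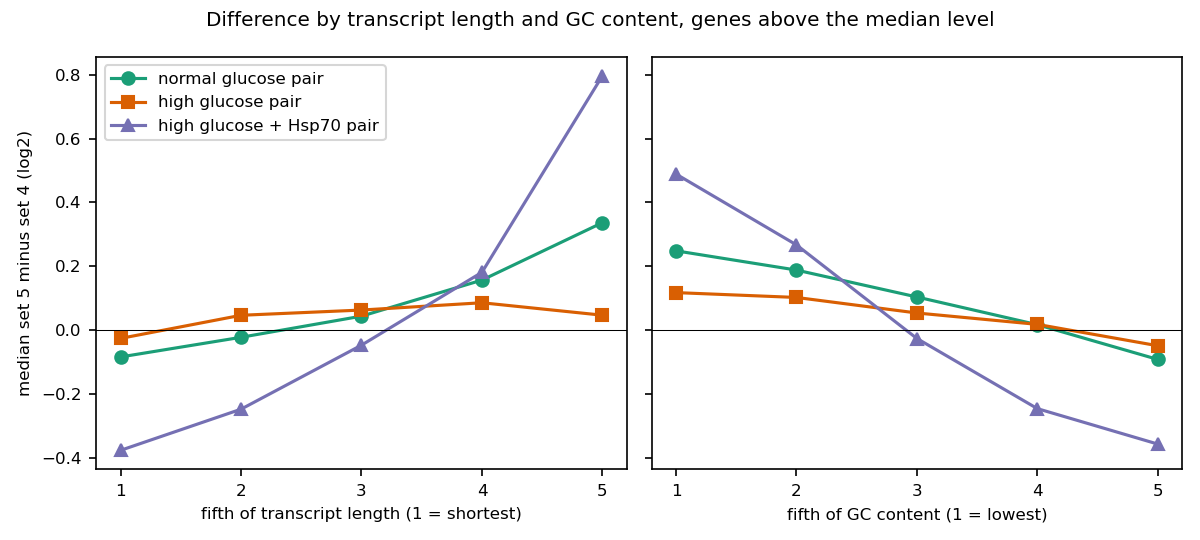
Median set 5 minus set 4 difference (y axis, log2) of genes above the median level, in 5 equal classes of transcript length (left) and of GC content (right), for the 3 pairs. The Hsp70 pair spans -0.38 to 0.80 over length, and the high glucose pair stays between -0.03 and 0.09.

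Most autosomes followed the same gradient, in small steps. Autosome medians ran from -0.05 (chromosome 7) to 0.17 (chromosome 18), a span of 0.22. Chromosome 7 had a median GC content of 52.2% and chromosome 13, with a median difference of 0.14, 46.5%. The span was 0.08 with the length and GC trends removed. The X chromosome stood at 0.15. The 11 tested genes of the Y chromosome had the lowest median GC content of any chromosome, 36.4%, but a median difference of -0.30, against that gradient. Their medians were 0.19, -1.23 and 0.03 in the normal glucose, high glucose and Hsp70 pairs. Among them, Ddx3y, Uty, Kdm5d and Eif2s3y of the Y-linked list above differed by 0.60, 0.71, 0.27 and -0.26.

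The Hsp70 pair departed from the other pairs mainly in 2 ways. These are described, without a test, by the genes with the widest gap between that pair and the mean of the others. Rn45s, also among those genes, followed neither way. In the first way, Hsp70 replicate 3 of set 4 read like set 5, and the normal and high glucose libraries of set 4 stood apart. Apba2, a neuronal adaptor protein that binds the amyloid precursor, read 6.53 and 6.20 in normal and high glucose of set 4, but 9.18 in its Hsp70 library, and 9.08, 9.10 and 8.92 in set 5. Slc35f1, a solute carrier, read 7.23 and 7.48 against 9.52, and 9.26, 9.26 and 8.97. The pseudogene Adh6-ps1 read 6.53 and 7.04 against 8.98, and 8.996, 8.48 and 8.78. All 3 had 2 libraries low out of 6.

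Cyp2e1, a cytochrome P450 of ethanol metabolism, showed the reverse: 10.63 and 10.54 against 7.19 in set 4, and 7.68, 7.67 and 8.15 in set 5. The small RNA gene Rn4.5s read 12.81 and 13.45 against 8.98, and 8.85, 9.43 and 9.82. Outside these sets, Cyp2e1 read 10.67 and 10.58 in the high glucose and Hsp70 libraries of set 3, and 7.86 to 8.52 in the 3 others. Apba2 read 7.27 and 6.88 in the same 2 libraries of set 3 and 8.05 to 10.06 in the 3 others. The high and low libraries were therefore the same for both genes over all 11, with opposite sign.

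The other way concerned long transcripts low in Hsp70 replicate 3 of set 4. Nbeal1, a BEACH domain protein, read 11.22, 11.43 and 8.31 in set 4 and 11.98, 11.42 and 12.34 in set 5. Lmbrd2, a membrane protein, read 9.25, 9.65 and 6.42 against 10.24, 9.79 and 10.45. Zbtb20, a zinc finger repressor, read 10.17, 10.37 and 7.44 against 9.57, 9.12 and 10.29. Their longest transcripts had 15731, 8099 and 26901 bases, against a median of 3180 for all genes. In Nbeal1 and Lmbrd2 this 1 library was the lowest of all 6 by over 2 log2 units, and normal glucose replicate 1 of set 3 was low as well, at 9.11 and 7.40. Rn45s, the ribosomal precursor, was low in normal glucose of set 4 alone, at 17.27 against 18.93 to 20.13 in the other 5.

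**Figure D5:**
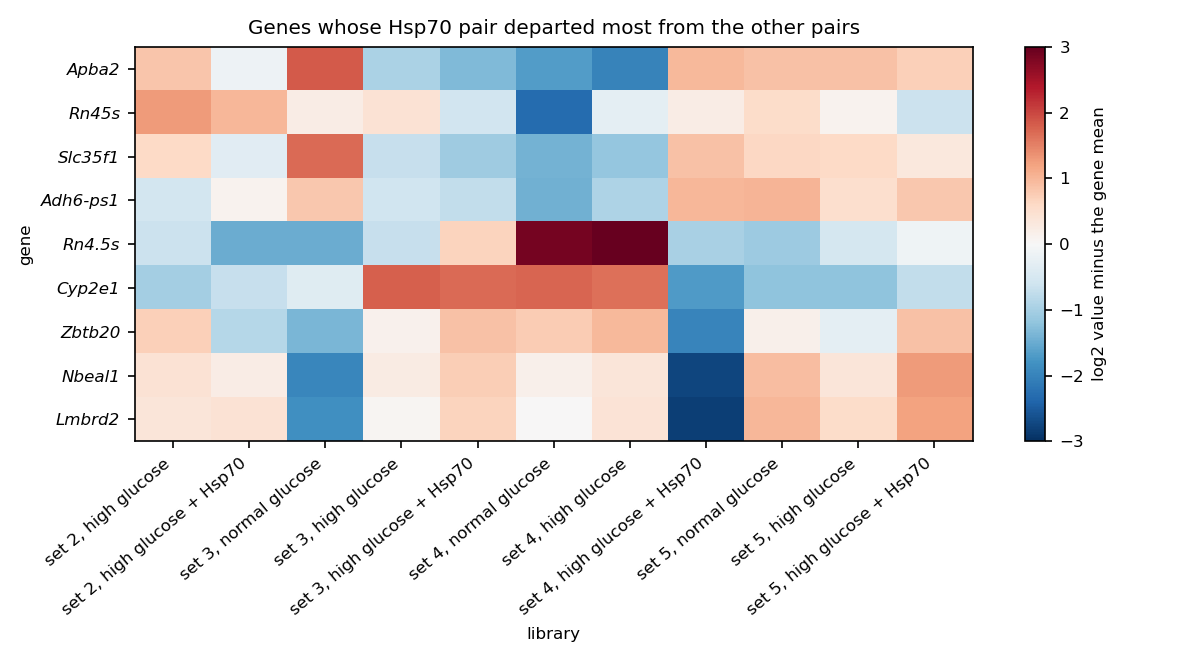
Log2 value minus the gene's mean over 11 libraries (colour, clipped at 3 on either side) for 9 of the 10 genes whose Hsp70 pair departed most. Apba2 and Slc35f1 are blue, and Cyp2e1 is red, in the high glucose and Hsp70 libraries of set 3 and the normal and high glucose libraries of set 4.

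A sequence was shared by many of the genes that were low in normal and high glucose of set 4. The transcripts of Apba2 and Slc35f1 hold a run of the 4-base unit GAAA in the annotated 3′ untranslated region of the last exon. The first 6 copies of each run are shown because this feature, which the choice of the genes did not use, is what they have in common (30 bases, 5′ to 3′, GENCODE M21 transcripts on GRCm38, plus strand; capitals mark the repeat and lower case the 6 bases before it).
Apba2: aaaaaaGAAAGAAAGAAAGAAAGAAAGAAA
Slc35f1: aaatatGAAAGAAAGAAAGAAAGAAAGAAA
They lie at chr7:64753372-64753401 and chr10:53111376-53111405, and the runs go on to 16 and 21 copies.

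Among genes above the median level, 16 were more than 1 higher in set 5 in both the normal and high glucose pairs and under 0.5 in the Hsp70 pair. Of these, 7 held 6 or more GAAA copies in a row on the sense strand, among them Wnt4, Rgs7bp, Slc35f1, Apba2 and Bco1. Of all 8509 genes at that level 56 did (0.658%). None of the 16 held the reverse complement, which 87 genes (1.02%) did. Those counts describe genes picked for their values and carry no test.

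The repeat was found in those 16 genes, which were picked by these same pairs, so the counts by sequence below are no separate support. Of 16828 tested genes with a transcript, 92 held the sense repeat. Their medians were 0.48 in the normal glucose pair, 0.29 in the high glucose pair and -0.07 in the Hsp70 pair, beside 0.05, 0.02 and 0.02 for all of them. In 20 of the 92 (21.7%) both the normal and high glucose pairs exceeded 1, against 1.12% of all genes. With the run on the antisense strand only, the medians of 120 genes were 0.18, 0.09 and 0.24, and 0 of 120 exceeded 1 in both pairs. By copy number, the 27 genes with 6 to 9 copies had medians of 0.34, 0.04 and 0.38, the 30 genes with 10 to 14 copies 0.54, 0.24 and -0.02, and the 35 genes with 15 or more 0.69, 0.74 and -0.21. The last group was higher in set 5 by over 1 in both pairs in 13 of 35 genes. Ffar2, a receptor for short-chain fatty acids whose transcript holds 16 copies, went from 5.67 and 6.15 in set 4 to 9.06 and 9.05 in set 5, with 9.25 and 9.04 in the Hsp70 pair.

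The median level of the 35 genes with 15 or more copies was 8.80 and 8.73 in normal and high glucose of set 4, 9.71 in its Hsp70 library, and 9.70, 9.69 and 9.71 in set 5. In set 3 it was 10.38 in normal glucose, 9.10 in high glucose and 8.99 with Hsp70, and in set 2 9.27 and 9.07. The 3 libraries of set 5 and Hsp70 replicate 3 of set 4 were thus at nearly the same level. The source of the pattern was not tested.

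The genes with the opposite pattern were 19: more than 1 lower in set 5 in both the normal and high glucose pairs, and above -0.5 in the Hsp70 pair. Pola2, a subunit of DNA polymerase alpha, read 12.14 and 11.86 against 9.42 in set 4, and 9.41, 9.65 and 9.46 in set 5. Exosc2, of the RNA exosome, read 11.25 and 10.98 against 9.64, and 9.63, 9.58 and 9.50. For both genes the 2 high libraries were normal and high glucose of set 4, and the other 4 were close to each other. The 24-base word found in the largest number of them, 7 of 19 against 61 of 8509 (0.717%) and so chosen from these values, is part of the B2 repeat, a short interspersed element that is transcribed by RNA polymerase III. It is shown for 2 of the genes with 6 bases before it, in lower case, since it is their shared feature (3′ untranslated region, plus strand, same source).
Cyp2e1: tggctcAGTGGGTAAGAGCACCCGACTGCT
Cxcr2: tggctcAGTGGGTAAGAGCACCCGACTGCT
They lie at chr7:140774810-140774839 and chr1:74159895-74159924. Over all 61 genes that hold the word the medians were 0.01, 0.04 and 0.11 in the 3 pairs, and its reverse complement was in 2 of the 19.

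3 neighbours on the X chromosome and a small RNA differed by nearly the same amounts. Reps2, Txlng and S100g lie between chrX:162411954 and chrX:162964599. They were higher in set 5 by 1.84, 1.88 and 1.84 in normal glucose and by 1.08, 1.06 and 1.03 in high glucose, and by 0.07, 0.13 and 0.06 in the Hsp70 pair. Bc1, a noncoding RNA transcribed by RNA polymerase III and listed on chromosome 7, was higher by 1.94, 1.11 and 0.07. The 4 genes read between 9.19 and 11.57 in normal glucose of set 4 and between 11.03 and 13.41 in that of set 5.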

How the data were processed

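Stranded RNA-seq libraries were made from Trizol RNA with a SMARTer kit, per the labels' protocols. The deposited files hold log2 values, 1 file per library, read here from their range as log2(normalized count + 1). The authors used TopHat, edgeR and the build mm10, per the submitters' processing notes, which give no version. Which normalization and gene models were used, and what was done with multiply mapped reads, is not given in the sources used here. The set numbers come from the names of the deposited files. Depth in reads is unknown, and the number of libraries limits the precision: the median standard error of a difference was 0.218.

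Of 23282 genes per file, 44 repeated symbols were dropped. A gene entered the fit when 3 of the 6 libraries had a normalized count of 1 or more. The fit used limma 3.58.1 under R 4.3.3 (treatment and set as terms, trended prior, robust variances), with Benjamini-Hochberg adjustment at 0.05. The fit was tested on simulated data. GENCODE M21 on GRCm38, the same assembly as mm10, matched 22197 names (95.5%) and gave positions and transcripts, of which the longest gave length and GC content. Repeats were runs of 6 or more GAAA units in any transcript.

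The named genes were those above the median level, without predicted names and with 1 sign in all 3 pairs: the 12 with the smallest p in each direction, since none passed. Added to them were Txnip, Cth, Hspa1a, Pecam1, Dcn and Cxcl12, up to 4 members of each list described, and the 5 genes with the largest gap of the Hsp70 pair from the others in each direction. Genes outside these, and the classes of genes defined by 2 pairs, were chosen after their values were seen. The members and lists were chosen with earlier results of these data known. A total of 38 lists were made; 1, of mitochondrially encoded genes, had no tested member. The alternatives were fits without treatment, with the title number as a block, with all 11 libraries, other filters, scalings, pseudocounts and variance settings, and each pair or library left out. Those without length and GC trends and without repeat genes were added after seeing the data. Figures were drawn with matplotlib 3.10.9. A few genes are not reported here.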

Additional observations from a re-analysis of the deposited data

Results flagged for a closer look

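In 7 genes the normal and high glucose pairs differed one way between sets 4 and 5 and the Hsp70 pair the other way; the difference between pairs was not tested, each pair being 2 libraries. The Hsp70 pair stood at -0.26 for Apba2, -0.55 for Slc35f1, -0.19 for Adh6-ps1 and -0.88 for Rn45s, where the other pairs were above 0. It stood at 0.84 for Rn4.5s, 0.96 for Cyp2e1 and 2.86 for Zbtb20, where the other pairs were below 0. The 7 were among the 10 genes chosen for this gap.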

How the results depend on the processing

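The count of 0 genes called between the sets was also 0 with other filters, scalings, pseudocount and variance settings, with all 11 libraries, and, both added after seeing the data, with the length and GC trends removed and without the repeat genes. With set alone and no replicate block it was 1 (Serpina3j). With the title number as a replicate block it was 0, with 1093 at an unadjusted p under 0.05; 3 is the only title number in both sets. Leaving out a pair gave 0 to 854 calls, with 854 without the Hsp70 pair. Leaving out a library together with the treatment term gave 514 without Hsp70 replicate 3 and 1 without normal glucose replicate 2, where dropping the term alone already gave 1. Counts at an unadjusted p under 0.05, 2140 in the fit reported, ran from 522 to 3605 with a pair or library left out, and were 1348 with no trend. With the length and GC trends removed the count was 1429 of 16828 genes, 614 higher in set 5 and 815 lower. Treatment gave 0 calls in each alternative run. The pair agreement (1 sign in all pairs) ranged from 32.7% to 41.7%. The span of autosome medians was 0.0787 with length and GC trends removed.

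Differences near 0 changed sign. Where a single library is named below, the treatment term was dropped as well, so the sets then hold unequal treatments and the value shifts by construction. Txnip had 0.14 without normal glucose replicate 3 and 0.037 without high glucose replicate 3. Hspa1a ran from -0.13 to 0.14 with a pair or library left out, with 0.0075 without the normal glucose pair and 0.051 without high glucose replicate 3, and had 0.14 without the length and GC trends. Dcn ran from -0.43 to 0.0007755, the latter without the normal glucose pair. Cxcl12 had -0.073 under quantile normalization and -0.16 without the length and GC trends, and ran from -0.044 to 0.084 with a pair left out, with -0.00582 without normal glucose replicate 3 and -0.014 without high glucose replicate 3. For the others the cause was not tested.

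With 3 libraries a side, a count of calls that changed with 1 of them left out, and no read depths, small differences could not be resolved.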
